A study of Mus musculus with 6 samples.

Results

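The genes described here encode the glycosyltransferases that start, branch, extend and cap mucin-type glycans, together with related enzymes that act on the ends of other glycans. They were taken by gene name from a table of 18708 genes: the Galnt, Gcnt, B3gnt, B4galnt, B3galnt, B4galt, B3galt, St3gal, St6gal (with St6galnac), St8sia and Fut families, and A4gnt, A4galt, C1galt1 and C1galt1c1. Of 81 such genes, the 57 that averaged 0.5 FPKM or more over all libraries are the members. FPKM counts fragments per transcript length and per library size. RNA had been sequenced from the stomach corpus of C57BL/6 mice at 6 months of age, 3 with R122C, a point mutation of the transcription factor RUNX3 (R122C), and 3 wild type (WT). Each library came from 1 mouse, so the replicates are animals. The sources used here do not give zygosity or sex.

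Mucin-type O-glycosylation begins in the Golgi, where a GalNAc-transferase attaches N-acetylgalactosamine (GalNAc) to a serine or threonine. Core enzymes then add galactose or N-acetylglucosamine (GlcNAc), further enzymes lengthen the chain, and sialic acid, fucose, GalNAc or alpha-1,4-linked GlcNAc close its ends. In the stomach the surface pit cells make the mucin MUC5AC, and the mucous neck cells of the corpus glands make MUC6, which carries alpha-1,4-linked GlcNAc.

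Of the 57 members, 49 averaged 1 FPKM or more and were tested among 11422 genes with limma on log2(FPKM + 1), with Benjamini-Hochberg adjustment over all genes tested. Below an adjusted p of 0.05, 8 members were higher in R122C (16.3% of those tested, against 5.27% of all tested genes) and 5 were lower (10.2%, against 0.832%), and 6.10% of all tested genes passed in either direction. The median log2 fold change, R122C minus WT, was 0.12 over the 49 members and 0.10 over all tested genes. The members that rose were St3gal4, A4gnt, Galnt6, Galnt10, Galnt3, Galnt12, B4galt1 and Fut2, and those that fell were B4galnt2, Fut4, St8sia6, St6gal2 and Fut8. St6gal2 reached the minimum of 1 FPKM only through WT, so the share that fell includes a gene let in by the group where it was high. At an unadjusted p under 0.05 the count was 25 of 49 (51.0%, against 20.1% of all tested genes). The groups did not overlap, with R122C higher, for 12 tested members (24.5%, against 20.3%). With R122C lower they did not overlap for 9, among them St6gal2 and B3galt5, both let in only through WT (18.4%, against 5.19%). These counts rest on 6 animals: without R122C 2 they were 2 higher and 0 lower, without WT 2 also 2 and 0, without WT 3 they were 2 and 4, without WT 1 they were 4 and 3, without R122C 1 they were 5 and 5, and without R122C 3 they were 10 and 4. The split also depended on scaling, with 5 higher and 5 lower after median-of-ratios or quantile scaling, and 12 and 4 after rescaling to a common total. The median log2 fold change of all tested genes was 0.00 and -0.06 under the first 2 of these scalings and 0.29 under the last, and no member past the threshold changed sign under any of them. The counts were also 5 higher and 1 lower with no filter on low genes, and 3 and 4 with Y-linked transcripts as a covariate.

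**Figure D1:**
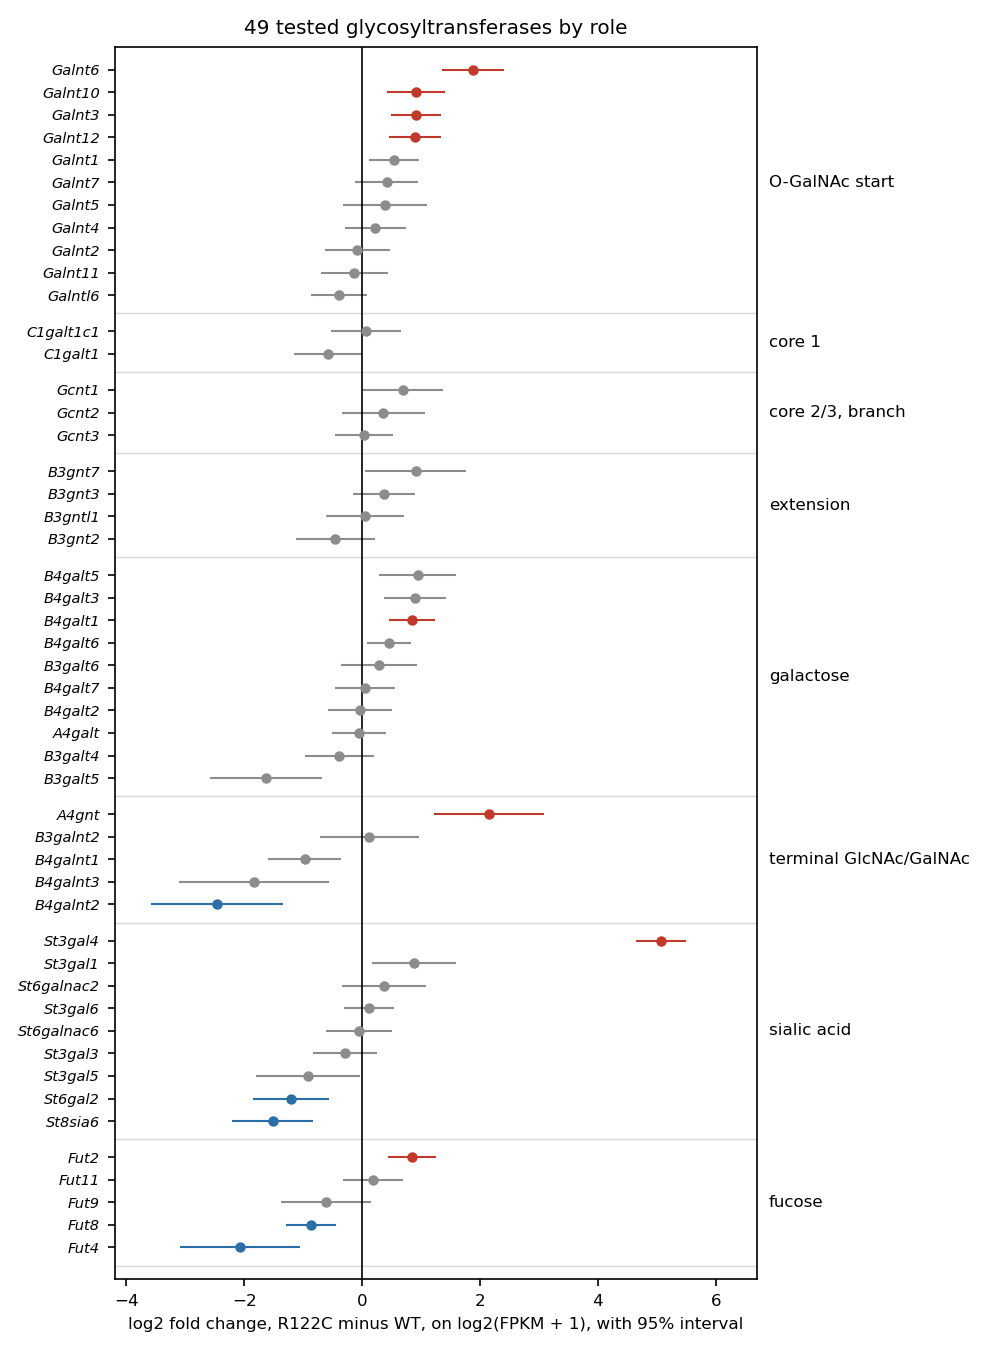
Log2 fold change (R122C minus WT, on log2(FPKM + 1)) of the 49 tested glycosyltransferases, by role. Points are limma estimates and lines their 95% intervals, red for the 8 members that rose, blue for the 5 that fell and grey for the 36 that did not pass. St3gal4 lies far to the right at 5.07, and the largest negative estimate is that of B4galnt2 at -2.46.

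The libraries set the frame for these values. Summed FPKM was 581276 to 631156 in R122C and 685694 to 716992 in WT, and the 10 most abundant genes took 24.5 to 29.1% of it in R122C and 45.3 to 46.2% in WT. Mucous neck markers summed to 17670 to 25780 FPKM in R122C and 3216 to 4958 FPKM in WT, with 4 of 4 genes higher without overlap. Tff2 made up most of this sum, and Aqp5 was at 96.95 to 172.28 FPKM in R122C and 1.16 to 2.90 FPKM in WT. Antral markers (Gast and Pdx1, 2 of 2 higher) summed to 4.48 to 8.46 FPKM in R122C and 0.14 to 2.51 FPKM in WT. Pit markers summed to 56730 to 83280 FPKM in R122C and 112300 to 255900 FPKM in WT, with 6 of 6 lower. Markers of chief cells summed to 1760 to 26630 FPKM in R122C and 35270 to 112500 FPKM in WT. Of these 5 markers, 2 were lower, Pgc and Chia1, and Pgc made up most of the sum. Markers of spasmolytic polypeptide-expressing metaplasia (5 of 5 higher) summed to 2619 to 5742 FPKM in R122C and 1003 to 1290 FPKM in WT, mostly from Clu. The neck, antral and metaplasia lists were all higher, so these sums do not single out any of those cell types. Interferon-stimulated genes (8 of 8 higher) summed to 578.9 to 1302 FPKM in R122C and 33.71 to 150.6 FPKM in WT. The part of these differences in the values of any glycosyltransferase was not tested. In whole tissue, fewer cells of a type and less RNA per cell cannot be told apart. R122C 3 stood apart, with 1841 FPKM summed over 12 squamous forestomach markers. R122C 1 had 78.35 FPKM, R122C 2 had 169.2 FPKM and WT had 40.84 to 180.2 FPKM. R122C 3 also had the lowest chief sum, 1760 FPKM, against 14340 in R122C 1 and 26630 in R122C 2. Parietal markers (1 of 6 higher, 1 of 6 lower) summed to 7343, 6379 and 2751 FPKM in R122C and 5664 to 10350 FPKM in WT. The Y-linked gene Ddx3y was detected in R122C 2 (4.23 FPKM) and WT 3 (2.83 FPKM), and was at 0.02 FPKM or less in the other libraries. Runx3 itself was at 0.24, 0.34 and 0.95 FPKM in R122C and 0.34, 0.12 and 0.20 FPKM in WT, and a substitution leaves no mark in these values, so the genotype labels could not be checked by it.

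The enzymes that start O-glycans were the group with the largest number of members that rose. Of 12 Galnt members, 11 were tested, 4 rose, 0 fell and 7 stayed short of the threshold. Of all tested genes, 5.27% rose and 0.832% fell. Only 1 Galnt member, Galnt6, passed without R122C 2, without WT 2, without WT 3 or with the covariate for Y-linked transcripts. The median log2 fold change of the 11 was 0.41. Their summed level was 486.0, 389.7 and 327.1 FPKM in R122C and 265.6, 278.5 and 218.7 FPKM in WT. Every R122C library lay above every WT library. Galnt6 (chromosome 15, 100691813 to 100729376, minus strand, GRCm38) had 96.87, 83.01 and 56.32 FPKM in R122C and 21.56, 21.41 and 17.36 FPKM in WT. The lowest R122C library was well above the highest WT library, and the estimated change was 1.89 ± 0.23 on the log2 scale (SE, n = 3 each; limma adjusted p = 0.00301). Leaving out any library kept it past the threshold, the highest adjusted p being 0.0192 in limma. Galnt6 made up 19.93, 21.3 and 17.22% of the summed Galnt level in R122C and 8.118, 7.687 and 7.938% in WT.

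Galnt3, which glycosylates the phosphate hormone FGF23 in bone, is also expressed in mucous epithelia. Its level was 37.32, 41.91 and 37.11 FPKM in R122C and 22.60, 21.72 and 16.51 FPKM in WT (0.91 ± 0.18, SE; limma adjusted p = 0.0243). Galnt12, a digestive tract enzyme, had 76.07, 71.52 and 58.59 FPKM in R122C and 33.25, 43.56 and 32.88 FPKM in WT (0.90 ± 0.19, SE; limma adjusted p = 0.0323). All 3 R122C libraries exceeded all 3 WT libraries for both genes. Galnt10, which prefers peptides that already carry a GalNAc, had 12.02, 8.79 and 8.30 FPKM in R122C and 5.59, 4.49 and 3.87 FPKM in WT, again without overlap (0.92 ± 0.21, SE; limma adjusted p = 0.0430). These 3 calls were close to the threshold. In limma, Galnt3 had an adjusted p of 0.124 without R122C 2, 0.0848 without WT 2 and 0.0913 without WT 3, while Galnt12 (0.0625 to 0.141) and Galnt10 (0.0577 to 0.16) missed the threshold without any 1 library other than R122C 3. Galnt12 was also at 0.0619 after median-of-ratios and 0.0521 after quantile scaling in limma. With the covariate for Y-linked transcripts, the limma adjusted p was 0.0518 for Galnt3, 0.0663 for Galnt12 and 0.0688 for Galnt10.

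Galnt4, Galnt7, Galnt2 and Galnt1 are also widely used O-glycan starters, Galnt4 and Galnt7 preferring glycosylated peptides. None of them passed. Galnt4 had 79.87, 48.09 and 48.32 FPKM in R122C and 50.45, 50.83 and 44.86 FPKM in WT, and Galnt7 had 74.74, 49.09 and 52.57 FPKM in R122C and 46.19, 51.07 and 34.00 FPKM in WT. In both, R122C 1 was the high library and the groups overlapped. Galnt2 had 58.74, 46.11 and 31.48 FPKM in R122C and 47.30, 51.43 and 41.50 FPKM in WT, with a log2 fold change of -0.08 and a 95% interval of -0.63 to 0.47. Galnt1 was at 29.98, 25.71 and 23.31 FPKM in R122C and 20.47, 17.15 and 15.71 FPKM in WT, without overlap but short of the threshold (0.54 ± 0.19, SE; limma adjusted p = 0.143). Galntl6, a low member of the family, lay the other way at 2.54, 2.01 and 1.63 FPKM in R122C and 3.18, 3.01 and 2.77 FPKM in WT (limma adjusted p = 0.343). Galnt11 and Galnt5 overlapped between groups at 1.91 to 10.51 FPKM, and Galnt18 (0.43 to 1.38 FPKM) was under the test's minimum.

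The enzymes that build the O-glycan cores did not pass. C1galt1 forms core 1 by adding galactose, with C1galt1c1 (Cosmc) as its chaperone. C1galt1 had 43.58, 25.61 and 25.08 FPKM in R122C and 51.68, 49.59 and 37.74 FPKM in WT (-0.58 ± 0.25, SE; unadjusted p = 0.0482, limma adjusted p = 0.243). R122C 1 lay within the WT range and the other R122C libraries below it. C1galt1c1 had 42.84, 34.81 and 22.29 FPKM in R122C and 35.97, 31.55 and 25.23 FPKM in WT, with overlapping groups (log2 fold change 0.07, 95% interval -0.52 to 0.67). Gcnt3, the mucin-type enzyme that makes core 2 and core 4 branches, was the third most abundant member in both groups, with 130.85, 113.79 and 111.26 FPKM in R122C and 92.99, 149.25 and 113.25 FPKM in WT. Its log2 fold change was 0.02 with a 95% interval of -0.47 to 0.52, and the R122C values lay inside the WT range. Gcnt1, another core 2 enzyme, Gcnt2, which makes I branches, and Gcnt4 were low in every library (0.32 to 3.89 FPKM). In limma, 0 of 2 core 1 genes and 0 of 3 tested branching genes passed, with 1 of each under an unadjusted p of 0.05.

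Among the chain-extending B3gnt members, 0 of 4 tested passed in limma and 1 had an unadjusted p under 0.05. B3gnt3, which extends core 1, was the most abundant member in R122C and the second in WT, at 157.03, 158.70 and 181.73 FPKM in R122C and 93.94, 160.26 and 136.94 FPKM in WT. WT 2 reached the R122C levels, and the 95% interval of the log2 fold change ran from -0.15 to 0.90. B3gnt2, the main poly-N-acetyllactosamine enzyme, had 22.30, 20.91 and 10.30 FPKM in R122C and 28.09, 23.59 and 19.67 FPKM in WT, with overlapping groups (-0.45, limma adjusted p = 0.450). The exons of B3gnt2 share 2449 bases (58.6%) with the same-strand gene model Gm28048, which is not among the 18708 genes. How fragments of the shared bases were counted is not known, so the level of B3gnt2 is uncertain. B3gnt7, which extends keratan sulfate-type chains, had 8.70, 13.08 and 15.55 FPKM in R122C and 3.32, 5.48 and 11.21 FPKM in WT (0.91, limma adjusted p = 0.221). B3gntl1, B3gnt8 and B3gnt9 lay between 0.33 and 2.71 FPKM with overlapping groups.

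Of 10 tested galactosyltransferases, B4galt1 rose and the other 9 did not pass. B4galt1, the widely expressed beta-1,4-galactosyltransferase that makes N-acetyllactosamine, had 61.26, 75.36 and 65.83 FPKM in R122C and 33.83, 37.72 and 39.34 FPKM in WT. The groups were well separated, and the log2 difference was 0.85 ± 0.17 (SE; limma adjusted p = 0.0242). The adjusted p from limma was 0.111 after median-of-ratios scaling and 0.0508 after quantile scaling, was 0.0506 with the covariate for Y-linked transcripts, and reached 0.0663 to 0.13 without R122C 2, WT 1, WT 2 or WT 3. B4galt3 had 20.10, 21.40 and 31.72 FPKM in R122C and 12.00, 10.44 and 15.25 FPKM in WT (0.89 ± 0.23, SE; limma adjusted p = 0.0606). B4galt5 and B4galt6 both make lactosylceramide, the stem of most glycolipids. B4galt5 had 6.61, 7.41 and 3.78 FPKM in R122C and 3.67, 2.08 and 2 FPKM in WT (limma adjusted p = 0.0991, and 0.0285 without R122C 3), and B4galt6 had 12.53, 13.24 and 12.33 FPKM in R122C and 8.94, 9.50 and 8.59 FPKM in WT (limma adjusted p = 0.165). For all 3 of these genes the R122C libraries lay above the WT libraries without passing the test. Summed over the 7 B4galt members, the level was 107.8, 123.9 and 118.6 FPKM in R122C and 65.07, 65.92 and 70.36 FPKM in WT.

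B3galt5, which makes type 1 chains in digestive epithelia, lay the other way. It had 1.65, 0.19 and 1.01 FPKM in R122C and 2.40, 4.85 and 8.44 FPKM in WT, without overlap (-1.63 ± 0.42, SE; limma adjusted p = 0.0589). Without WT 1 its limma adjusted p was 0.0312. B3galt5 reached the test's minimum only through its WT libraries. B3galt4, the ganglioside GM1 synthase, A4galt, the globotriaosylceramide synthase, and the proteoglycan linker enzymes B4galt7 and B3galt6 overlapped between groups, as did B4galt2 and B4galt4.

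The terminal GlcNAc and GalNAc transferases moved in opposite directions. A4gnt adds the alpha-1,4-linked GlcNAc found on gland mucin MUC6 and known for its action against Helicobacter pylori. A4gnt (chromosome 9, 99612502 to 99622367, plus strand, GRCm38) had 198.89, 141.93 and 97.68 FPKM in R122C and 55.78, 17.64 and 29.10 FPKM in WT. Its lowest R122C library exceeded its highest WT library, and the log2 fold change was 2.16 ± 0.41 (SE; limma adjusted p = 0.0190). A4gnt ranked second among the 57 members by mean level in R122C and was 13 in that order in WT. In limma its adjusted p was 0.0674 without R122C 2, 0.0673 without WT 2 and 0.0591 without WT 3. A4gnt moved with its known carrier: Muc6 had 1027.73, 596.26 and 537.02 FPKM in R122C and 49.10, 11.61 and 60.88 FPKM in WT, and is 1 of the neck markers given above, whose part in the value of A4gnt was not tested.

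B4galnt2 makes the Sda (Cad) antigen in the digestive tract by adding GalNAc beside a sialic acid. B4galnt2 (chromosome 11, 95865943 to 95914891, minus strand, GRCm38) had 2.83, 2.24 and 0.09 FPKM in R122C and 20.31, 9.66 and 8.93 FPKM in WT. All R122C libraries lay below all WT libraries, with R122C 3 close to 0, and the log2 fold change was -2.46 ± 0.49 (SE; limma adjusted p = 0.0231). It was -1.90 without R122C 3, and the limma adjusted p was then 0.00888. The limma adjusted p was 0.0501 without R122C 2, 0.0645 without WT 1 and 0.0763 without WT 2. R122C 3 is the library with the squamous markers and with the lowest chief and parietal sums, whose part in B4galnt2 was not tested. B4galnt1, the ganglioside GM2 synthase, was the most abundant member in WT, at 86.62, 66.15 and 70.71 FPKM in R122C and 96.15, 172.90 and 188.46 FPKM in WT. WT 1 lay close to R122C 1, and the difference did not pass (-0.97 ± 0.27, SE; limma adjusted p = 0.0797, and 0.0166 without WT 1). B4galnt3, which makes the LacdiNAc end (GalNAc on GlcNAc), had 15.52, 13.69 and 2.19 FPKM in R122C and 29.55, 39.03 and 27.87 FPKM in WT (-1.84 ± 0.56, SE; limma adjusted p = 0.1). R122C 3 was far below the other libraries, and without it the log2 fold change was -1.07 with a limma adjusted p of 0.0191. B3galnt2, which acts on dystroglycan, and the low B3galnt1 overlapped between groups.

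The class total did not separate the groups. The 6 terminal GlcNAc and GalNAc transferases together had 314.1, 231.1 and 174.4 FPKM in R122C and 209.9, 247.1 and 258.4 FPKM in WT, the WT values lying within the R122C range. A4gnt made up 63.32, 61.42 and 56.0% of that total in R122C and 26.58, 7.139 and 11.26% in WT, while B4galnt1 made up 27.58, 28.63 and 40.54% in R122C and 45.82, 69.98 and 72.95% in WT. Neither share overlapped between groups.

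St3gal4 differed more between the groups than any other member. The enzyme adds alpha-2,3-linked sialic acid to the galactose of N-acetyllactosamine ends and takes part in making sialyl Lewis x. St3gal4 (chromosome 9, 35046576 to 35119268, minus strand, GRCm38) had 77.73, 94.73 and 95.38 FPKM in R122C and 1.60, 1.39 and 2.10 FPKM in WT. The mean was 89.28 ± 10.01 FPKM in R122C and 1.70 ± 0.365 FPKM in WT (SD, n = 3 each), a ratio of means of 52.6. The log2 fold change was 5.07 ± 0.19 (SE; limma adjusted p = 9.29e-06), and the highest adjusted p on leaving out any 1 library was 0.000258 in limma. By mean level St3gal4 was the fifth of the 57 members in R122C and 45 in that order in WT. Exons of St3gal4 share 412 bases with 4930581F22Rik on the opposite strand, which had 0.60, 0.30 and 0.29 FPKM in R122C and 0.14, 0.02 and 0.04 FPKM in WT. The adjacent gene Dcps had 17.16, 14.64 and 10.49 FPKM in R122C and 8.25, 5.89 and 8.70 FPKM in WT, and Kirrel3 on the other side stayed under 0.4 FPKM in every library.

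The most abundant St3gal member was not the same in both groups. St3gal4 made up 56.07, 66.47 and 72.2% of the summed St3gal level in R122C and 2.28, 2.847 and 3.859% in WT. St3gal5, the ganglioside GM3 synthase, led in WT with 47.73, 39.34 and 43.66% and held 15.91, 9.613 and 5.004% in R122C. Its own level did not pass, at 22.06, 13.70 and 6.61 FPKM in R122C and 33.50, 19.21 and 23.76 FPKM in WT (-0.91, limma adjusted p = 0.232). St3gal1, which sialylates core 1, had 11.76, 7.84 and 4.99 FPKM in R122C and 5.39, 3.15 and 3.09 FPKM in WT (0.88, limma adjusted p = 0.157). St3gal6, St3gal3 and St3gal2 overlapped between groups, at 0.64 to 17.7 FPKM. Summed over the family, the level was 138.6, 142.5 and 132.1 FPKM in R122C and 70.18, 48.83 and 54.42 FPKM in WT.

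The other sialyltransferases that passed were lower and much less abundant. St8sia6, which adds a further sialic acid to sialylated O-glycans, had 2.19, 0.86 and 1.73 FPKM in R122C and 5.60, 9.32 and 4.59 FPKM in WT (-1.52 ± 0.30, SE; limma adjusted p = 0.0226). St6gal2, an alpha-2,6-sialyltransferase known mainly from brain, had 0.92, 0.41 and 0.30 FPKM in R122C and 3.49, 2.75 and 1.57 FPKM in WT (-1.21 ± 0.28, SE; limma adjusted p = 0.0432). Groups did not overlap for either gene, and St6gal2 reached the test's minimum only through its WT libraries. In limma, St8sia6 had an adjusted p of 0.0892 without R122C 2, 0.0503 without WT 1 and 0.0985 without WT 2, and St6gal2 one of 0.0719 to 0.167 without R122C 2, R122C 3, WT 1 or WT 2. St6galnac2, which sialylates the first GalNAc, was the second most abundant sialyltransferase by mean level in R122C and the first in WT, at 64.12, 26.60 and 35.93 FPKM in R122C and 33.25, 24.43 and 34.33 FPKM in WT, and overlapped between groups. St6galnac6 and St6gal1 were at 0.41 to 1.93 FPKM with overlapping groups.

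Of 5 fucosyltransferases, all tested, Fut2 rose and Fut4 and Fut8 fell. Fut2 makes the alpha-1,2-linked fucose of H-type antigens on secreted mucins, the product that defines secretor status in people. It had 95.39, 102.74 and 86.58 FPKM in R122C and 45.61, 53.70 and 57.87 FPKM in WT (0.85 ± 0.18, SE; limma adjusted p = 0.0282). Fut4, an alpha-1,3-fucosyltransferase that makes Lewis x, had 11.67, 9.99 and 3.87 FPKM in R122C and 29.76, 65.11 and 23.60 FPKM in WT (-2.07 ± 0.45, SE; limma adjusted p = 0.0316). WT 2 was high among the WT libraries, and even the lowest WT library lay above all R122C libraries. Fut8, which adds core fucose to N-glycans, had 20.94, 17.24 and 17.54 FPKM in R122C and 29.13, 38.40 and 36.54 FPKM in WT, also without overlap (-0.86 ± 0.18, SE; limma adjusted p = 0.0311). Fut9, another Lewis x enzyme, and Fut11 overlapped between groups.

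The summed level of the Fut members overlapped between groups at 134.5, 134.4 and 111.5 FPKM in R122C and 112.2, 162.4 and 121.9 FPKM in WT. The shares of Fut2, Fut4 and Fut8 in that sum did not overlap, and those of Fut9 and Fut11 did. Fut2 held 70.93, 76.45 and 77.63% in R122C and 40.66, 33.07 and 47.48% in WT, against 8.678, 7.434 and 3.47% in R122C and 26.53, 40.1 and 19.36% in WT for Fut4. All 3 fucosyltransferase calls depended on single libraries. In limma, Fut4 had an adjusted p of 0.0709 without R122C 2, 0.0589 without WT 1 and 0.106 without WT 2. Fut8 had 0.0523 to 0.145 without R122C 2, R122C 3, WT 2 or WT 3, and 0.0559 after rescaling to a common total. Fut2 passed in limma without R122C 3 and had 0.0592 to 0.14 without any one of the others, with 0.105 after median-of-ratios and 0.052 after quantile scaling. With the covariate for Y-linked transcripts, the limma adjusted p was 0.0551 for Fut2 and 0.0673 for Fut8.

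**Figure D2:**
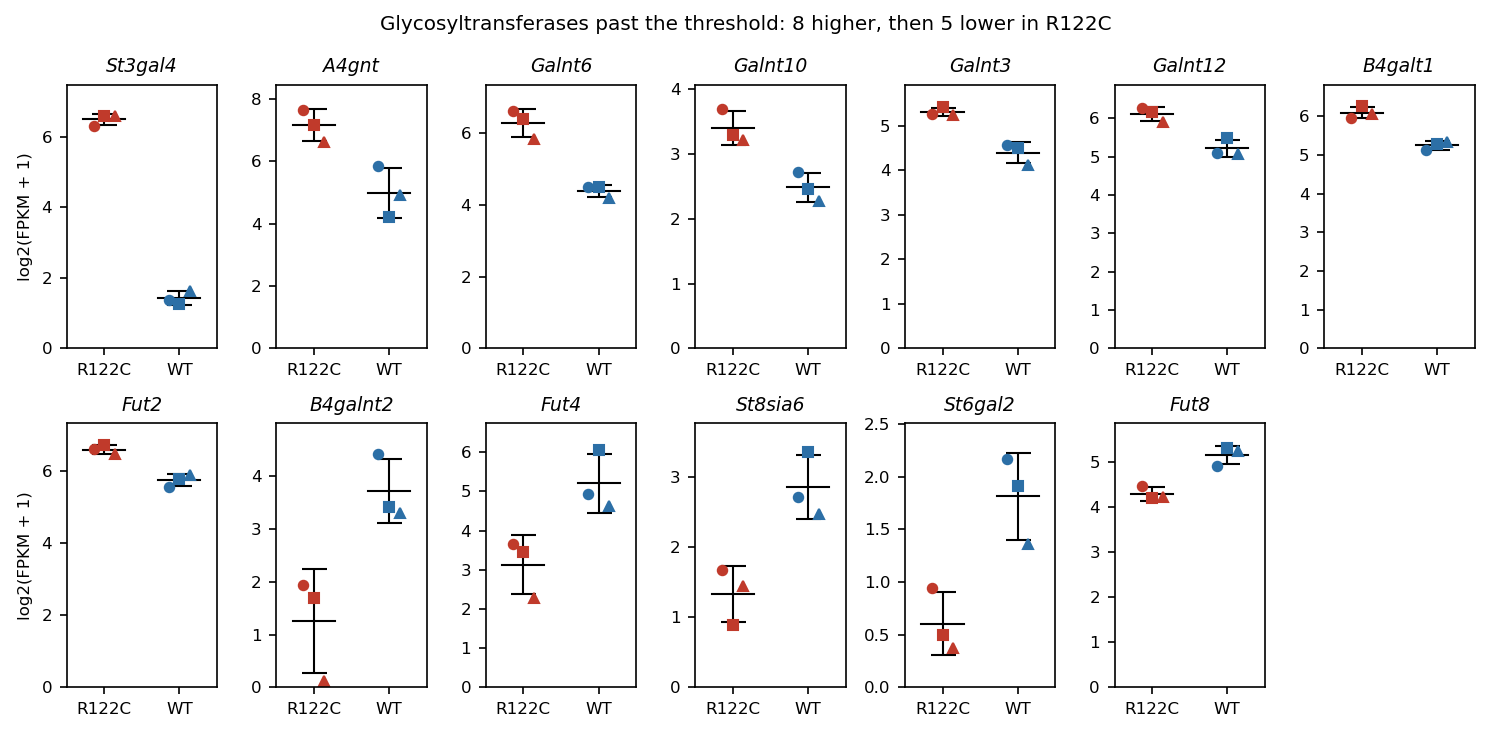
Levels of the 13 glycosyltransferases past the threshold, as log2(FPKM + 1), in R122C (red, left) and WT (blue, right). Circles, squares and triangles are replicates 1, 2 and 3, and black lines give the mean ± SD of the log2 values. The 8 genes that rose come first and the 5 that fell after them, and in none do the groups overlap.

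**Figure D3:**
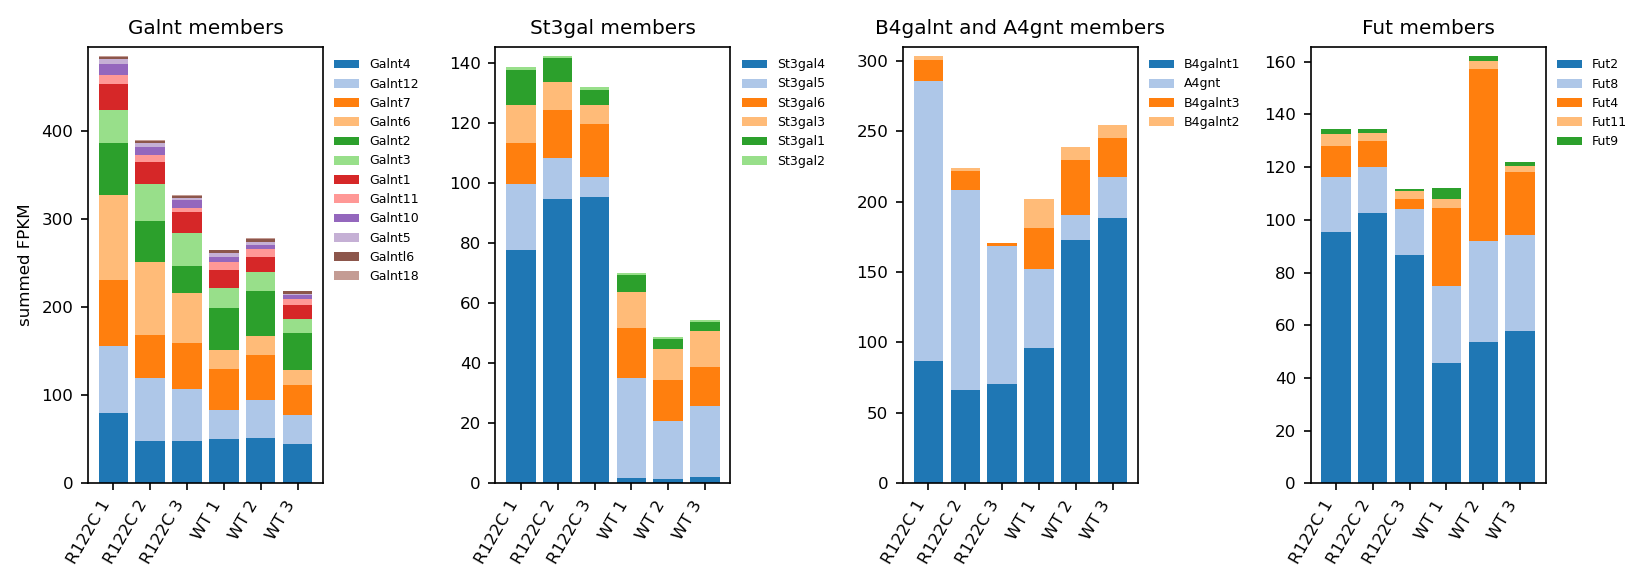
Summed FPKM of 4 groups of members in each library, R122C left of WT, with each gene's contribution stacked. St3gal4 fills 56.07 to 72.2% of the St3gal bars in R122C and 2.28 to 3.859% in WT, and A4gnt is the tallest segment of its group in every R122C library.

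Because the substitution lies in RUNX3, the 250 bases before each RefSeq transcription start (GRCm38.p6) were searched on both strands for the RUNX core letters TGTGGT and TGCGGT. Promoter windows were found for 41 of the 57 members, with 56 starts. Of these 56 windows, 8 held either core (14.3%), against 18.6% of all 32851 windows of that length. Among the members that rose, 2 of 7 windows (6 genes) held one, and among those that fell, 0 of 8 (5 genes, with 4 windows from Fut8). The windows of St3gal4, Fut4 and St8sia6 held no core. All 250 bases of each are annotated exon, so transcribed sequence was searched there, and they are not shown. The Galnt3 window (201 exon bases) and the first Fut8 window (175) are also mostly exon. The core letters of the interferon-stimulated response element were in 0 of the 56 member windows, against 2.98% of all windows. The 2 windows with a core are shown first, with the core in capitals, 168 bases before the start in A4gnt and 24 bases before it in B4galt1. Windows of Galnt6, which rose, and B4galnt2, which fell, are shown for comparison, and hold neither core. Each is written 5′ to 3′ on the gene's strand and lies at chr9:99612252-99612501 (plus) for A4gnt, chr4:40853985-40854234 (minus) for B4galt1, chr15:100729377-100729626 (minus) for Galnt6 and chr11:95914872-95915121 (minus) for B4galnt2. A match describes the letters and shows no binding.
A4gnt: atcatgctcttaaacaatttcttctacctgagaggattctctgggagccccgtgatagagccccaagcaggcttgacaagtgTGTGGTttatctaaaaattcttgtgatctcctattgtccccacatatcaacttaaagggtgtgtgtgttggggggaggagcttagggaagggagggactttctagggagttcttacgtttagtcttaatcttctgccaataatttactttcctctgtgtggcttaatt
B4galt1: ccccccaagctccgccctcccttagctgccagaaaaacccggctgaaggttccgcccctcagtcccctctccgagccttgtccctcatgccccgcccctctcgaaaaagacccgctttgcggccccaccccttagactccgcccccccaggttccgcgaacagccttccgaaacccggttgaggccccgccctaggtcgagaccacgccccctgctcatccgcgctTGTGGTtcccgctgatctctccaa
Galnt6: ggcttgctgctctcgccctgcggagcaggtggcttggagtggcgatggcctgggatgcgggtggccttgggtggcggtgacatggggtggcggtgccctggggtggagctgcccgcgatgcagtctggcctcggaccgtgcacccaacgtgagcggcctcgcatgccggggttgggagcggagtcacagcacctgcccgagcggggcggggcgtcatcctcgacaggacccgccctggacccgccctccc
B4galnt2: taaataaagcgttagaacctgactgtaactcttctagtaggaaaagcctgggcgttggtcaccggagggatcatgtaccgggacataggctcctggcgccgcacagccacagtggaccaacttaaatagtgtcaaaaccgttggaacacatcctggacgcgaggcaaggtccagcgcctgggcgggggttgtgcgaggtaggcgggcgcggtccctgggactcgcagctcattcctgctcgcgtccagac

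The substrates and suppliers of these enzymes were read from lists of 92 genes outside the families, of which 67 were tested. In limma 14 rose, 2 fell and 51 stayed short of the threshold, and the median change of all 67 was 0.26 on the log2 scale, against 0.10 over all tested genes. The calls are 20.9% higher, against 5.27% of all tested genes, and 2.99% lower, against 0.832%. Muc4 and Abo, among the 14, reached the test's minimum only through R122C, so the higher share includes genes let in by that group. The lists were chosen with earlier results of these data known, so these shares and those of single lists below do not test an enrichment. Without single libraries the counts were 5 to 17 higher and 1 to 4 lower, with 5 and 1 without WT 2, 6 and 1 without R122C 2, 8 and 1 without WT 3, and 4 lower without WT 1. Of 5 tested mucin core proteins, Muc6 (4.35, limma adjusted p = 0.00347) and Muc4 rose and Muc5ac fell. Muc5ac, the pit cell mucin, had 285.15, 187.74 and 148.95 FPKM in R122C and 853.37, 1573.67 and 1641.91 FPKM in WT (-2.70, limma adjusted p = 0.00312). Muc6 and Muc5ac kept their calls without any 1 library and, being markers of neck and pit cells, repeat those differences. Muc4, a membrane mucin, had 2.93, 5.92 and 27.19 FPKM in R122C and 0.14, 0.68 and 0.68 FPKM in WT. R122C 3, the library with the squamous markers, was the highest by far, and Muc4 reached the test's minimum only through R122C. The limma adjusted p of Muc4 was 0.0439, with 0.00957 without R122C 3, 0.0986 without R122C 2, and 0.0988 to 0.13 without any 1 WT library. In limma Muc4 also missed the threshold after median-of-ratios (0.0896) and quantile (0.109) scaling, with robust empirical Bayes (0.0851), with the covariate for Y-linked transcripts (0.0548), with no filter (0.118) and with a minimum of 5 FPKM (0.0671).

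Of 9 tested genes for mucin folding and mucous secretion, 4 rose and 0 fell, against 5.27% and 0.832% of all tested genes. Their median log2 fold change was 1.42. Spdef, a transcription factor of mucous secretory cells, had 185.55, 153.28 and 102.98 FPKM in R122C and 24.21, 21.37 and 21.44 FPKM in WT (2.63, limma adjusted p = 0.000832). Agr2, a disulfide isomerase needed for mucin assembly, had 3341, 3632 and 2100 FPKM in R122C and 703, 461 and 695 FPKM in WT (2.27, limma adjusted p = 0.00384). Both kept their calls without any 1 library, and their R122C levels stood far above the WT levels. The membrane-bound transcription factors Creb3l1 (1.93, limma adjusted p = 0.0183) and Creb3l4 (2.004, limma adjusted p = 0.0234) rose too. Creb3l1 lost the call in limma without WT 1 (0.0502) or WT 2 (0.0795) and after median-of-ratios scaling (0.0649), and Creb3l4 without R122C 1, R122C 2, WT 2 or WT 3 (0.0574 to 0.0724).

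Of 31 tested genes for sugar donors and their Golgi transporters, 5 rose in limma (16.1%, against 5.27% of all tested genes). Of 12 tested hexosamine and galactose donor genes, 3 rose: Gfpt1, the rate-limiting enzyme of the hexosamine pathway, Gnpnat1, which acetylates glucosamine phosphate, and Pgm2, a phosphoglucomutase. Gfpt1 had 121.04, 91.32 and 72.58 FPKM in R122C and 50.21, 27.04 and 29.18 FPKM in WT (1.42, limma adjusted p = 0.0233). Gne, the first enzyme of sialic acid synthesis, had 28.72, 20.75 and 18.62 FPKM in R122C and 11.89, 9.07 and 7.79 FPKM in WT (1.16, limma adjusted p = 0.0226). Neither gene's groups overlapped, and both missed the threshold in limma without R122C 2 (Gfpt1 0.082, Gne 0.0748), WT 2 (Gfpt1 0.106, Gne 0.102) or WT 3 (Gfpt1 0.0816, Gne 0.0849), Gfpt1 also without R122C 1 (0.0566). In limma, Gnpnat1 (0.96, adjusted p = 0.0329) lost its call without any 1 library other than R122C 3 and WT 1, and Pgm2 (1.03, adjusted p = 0.0122) without R122C 2 or WT 2 and after median-of-ratios scaling. Of 11 Golgi nucleotide sugar transporters, 1 rose: Slc35a2, the UDP-galactose transporter, which passed in limma (0.81, adjusted p = 0.0340) and, when single libraries were left out, only without R122C 3. GDP-fucose synthesis held 0 calls of 4 in limma and none with an unadjusted p under 0.05, with Gmds at 171.79 to 222.66 FPKM in R122C and 174.16 to 224.82 FPKM in WT. Glycan sulfation held 0 calls of 5 in limma and 2 with an unadjusted p under 0.05, with a median log2 fold change of -0.70. Its most abundant genes were Papss2, which makes the sulfate donor, at 108.87, 76.19 and 77.10 FPKM in R122C and 118.36, 181.91 and 141.45 FPKM in WT, and Gal3st1, the sulfatide enzyme, at 67.23, 63.07 and 81.71 FPKM in R122C and 71.31, 125.30 and 167.73 FPKM in WT.

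Of 4 listed blood group and alpha-Gal transferases outside the families, 2 were tested, Abo and Ggta1, and both rose. Gbgt1 (0.05 to 0.17 FPKM in R122C and 0.11 to 0.39 FPKM in WT) and Sec1 (0.11 FPKM or less) were under the test's minimum. Abo, which in mice makes both the A and the B antigen on the H structure that Fut2 provides, had 3.95, 4.47 and 5.49 FPKM in R122C and 0.33, 0.38 and 0.12 FPKM in WT (2.14, limma adjusted p = 0.00159). Ggta1, which makes the alpha-Gal end, had 9, 11.74 and 10.45 FPKM in R122C and 2.07, 2.57 and 1.73 FPKM in WT (1.87, limma adjusted p = 0.00180). The groups were far apart for both genes, which passed without any 1 library. Abo reached the test's minimum only through its R122C libraries. Of 6 N-glycan branching enzymes, Mgat3, which adds the bisecting GlcNAc, fell, at 19.21, 11.57 and 9.57 FPKM in R122C and 26.16, 40.55 and 33.44 FPKM in WT (-1.29, limma adjusted p = 0.0311). In limma the adjusted p of Mgat3 was 0.125 without R122C 2, 0.133 without WT 2 and 0.092 without WT 3. Of 9 tested glycosidases, Glb1, the lysosomal beta-galactosidase, rose, with 83.10, 55.32 and 45.55 FPKM in R122C and 25.43, 26.40 and 27.52 FPKM in WT (1.14, limma adjusted p = 0.0259). It lost the call in limma without R122C 2 (0.0817), WT 1 (0.0693), WT 2 (0.104) or WT 3 (0.0722).

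**Figure D4:**
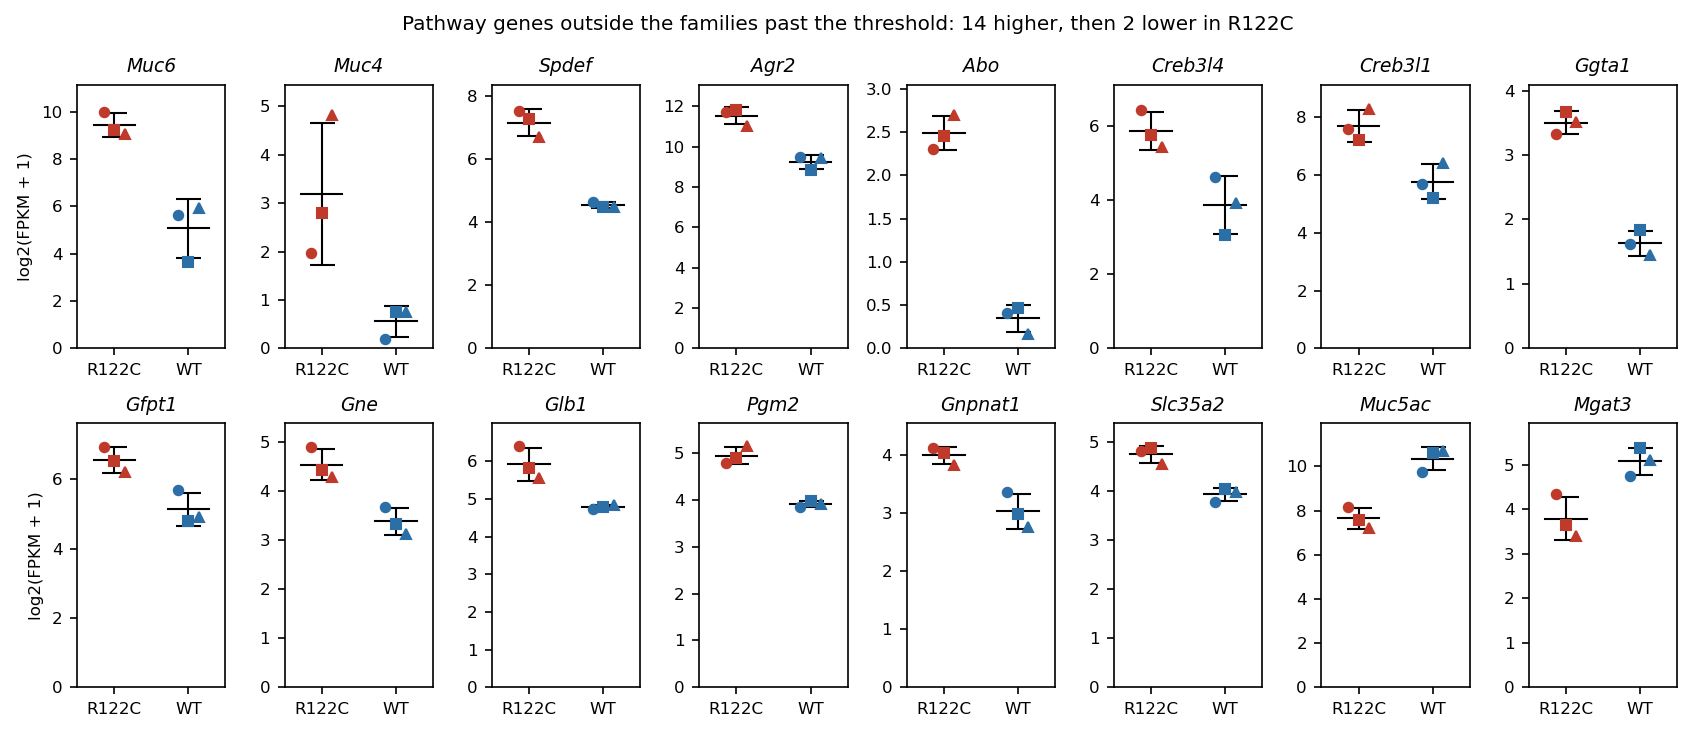
Levels of the 16 listed pathway genes past the threshold, as log2(FPKM + 1), in R122C (red, left) and WT (blue, right), with replicates 1, 2 and 3 as circles, squares and triangles and black lines for the mean ± SD of the log2 values. The 14 genes that rose come first and Muc5ac and Mgat3, which fell, come last, and the groups overlap in none of them.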

How the data were processed

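RNA was sequenced from corpus tissue of 3 R122C and 3 WT mice. The deposited table holds FPKM values computed by the authors, with 2 decimals. Per the submitters' processing notes, STAR, featureCounts and the build mm10 were used. The sources used here do not say how counts became FPKM or whether counting used strand, so reads of overlapping genes on opposite strands may be shared. Raw counts were not used here. The step between low FPKM values gave about 32700000 to 33000000 fragments for R122C 3 and 38600000 to 38750000 for WT 2, and the depth of the other libraries is undetermined.

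All 11422 genes that averaged 1 FPKM or more were fitted together on log2(FPKM + 1) with limma 3.58.1 in R 4.3.3 (empirical Bayes with trend, two-sided, no covariate, Benjamini-Hochberg, threshold 0.05). Fold changes are on that scale, which understates the change of low genes. The script was tested on simulated data. Members, lists, tests and the rule for named genes were chosen with earlier results of these data known. The rule names each member past the threshold, each with non-overlapping groups or a mean of at least 20 FPKM, and each listed pathway gene past the threshold, or else up to 2 of highest mean per list. The alternatives tried were a pseudocount of 0.1 or 0.5 FPKM, a minimum of 0.5 or 5 FPKM or none, 3 other scalings, 2 other empirical Bayes settings, leaving out each library, a block by replicate number, a required change of 1 or more on the log2 scale, and a covariate for Y-linked transcripts. Positions are from GENCODE M21 (GRCm38, the assembly of mm10) and promoter sequences from RefSeq (GRCm38.p6). Among the 18708 genes, 26 have a spreadsheet date as name. They were kept in the fit where they averaged 1 FPKM or more, and are not named. Figures were drawn with matplotlib 3.10.9.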

Additional observations from a re-analysis of the deposited data

How the results depend on the processing

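None of the 13 called members changed sign in any of the 18 alternative fits, and 2 (St3gal4 and Galnt6) passed in all of them. The 8 higher members became 5 with no filter, 5 after median-of-ratios scaling, 5 after quantile normalization, 13 with the replicate block, 3 with the covariate for Y-linked transcripts and 3 with a minimum absolute log2 fold change of 1. The 5 lower members became 1 with no filter and 3 with a minimum of 5 FPKM. Leaving out 1 library gave 2 to 10 higher and 0 to 5 lower members. With no filter A4gnt, Galnt12, Galnt10, Fut4, B4galnt2, St8sia6 and St6gal2 lost the call, with the Y-linked covariate B4galt1, Galnt3, Galnt12, Galnt10, Fut2 and Fut8, and with a pseudocount of 0.1 FPKM B4galnt2. The 14 higher pathway genes became 7 with no filter and 22 after rescaling to a common total, and the 2 lower became 1 with no filter and 4 with the replicate block. Leaving out 1 library gave 5 to 17 higher and 1 to 4 lower pathway genes. Over all genes, the 602 higher became 392 with a minimum of 5 FPKM, 1259 after rescaling to a common total and 1119 with the replicate block, and the 95 lower became 57 with a minimum of 5 FPKM, 195 after median-of-ratios scaling, 248 after quantile normalization, 259 with the replicate block and 62 with the Y-linked covariate. Leaving out 1 library gave 246 to 581 higher and 14 to 195 lower genes. The higher genes were 426 with median-of-ratios and 405 with quantile values. A minimum of 5 FPKM removes members from the test; the causes of the other shifts were not tested.

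Signs turned only for members that had not passed. Those with a mean under 20 FPKM were A4galt, B3galnt2, B3gntl1, B4galt2, B4galt7, Galnt11, St3gal6 and St6galnac6. Those at 20 FPKM or more were C1galt1c1, Galnt2, Galnt4 and Gcnt3. C1galt1c1 was at -0.044 after median-of-ratios scaling and -0.0758 after quantile normalization, and ran from -0.13 to 0.326 with 1 library left out, with -0.0637 without WT replicate 3. Galnt2 was at 0.146 after rescaling to a common total and ran from -0.282 to 0.157 with 1 library left out. Galnt4 ran from -0.0126 to 0.348 in the same way. Gcnt3 was at -0.0919 after median-of-ratios scaling and -0.116 after quantile normalization, and ran from -0.135 to 0.204 with 1 library left out. Whether the replicate numbers pair the samples could not be settled. Deviations from the group means correlated at 0.467, 0.0174 and 0.365 between libraries of the same number (1, 2 and 3). Between libraries of different numbers the range was -0.419 to 0.114, and R122C 2 correlated best with WT 1 (0.0962). Without counts the depth behind most FPKM values is unknown, and 3 animals per group limit the precision of every estimate.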

Other observations

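Several enzymes of the same families were hardly detected in corpus tissue. B3gnt6, the core 3 synthase of colon mucins, had 0.21, 0.08 and 0.32 FPKM in R122C and 0.06, 0.09 and 0.10 FPKM in WT. Fut1, the other alpha-1,2-fucosyltransferase, was at or under 0.19 FPKM in R122C and 0.14 FPKM in WT, against the far higher Fut2. Just outside the minimum of 0.5 FPKM lay B3galt1, with a mean of 0.447 FPKM, and Galnt15, with 0.333 FPKM, and just inside it Gcnt4 with 0.525 FPKM and B4galt4 with 0.59 FPKM. The 8 members under the test's minimum of 1 FPKM had overlapping groups, and with a minimum of 0.5 FPKM none of them passed in limma (adjusted p from 0.426 to 0.982).

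B4galt2 and B3galnt1 had the same values in all 3 WT libraries (1.5, 1.07 and 0.63 FPKM) and different ones in R122C (1.00, 1.03 and 0.95 FPKM for B4galt2, and 0.60, 0.69 and 0.54 FPKM for B3galnt1). Above the members' minimum of 0.5 FPKM, 59 genes match another gene in all 3 WT values but not in R122C.

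The exons of Galnt2 share 3854 bases (90.0%) with the same-strand gene model Gm20388, which is not among the 18708 genes. Those of B4galt2 share 1417 bases (28.2%) with same-strand Ccdc24, which is among them. How fragments of the shared bases were counted is not known, so the levels of Galnt2 and B4galt2 are uncertain. On the opposite strand, the exons of B4galnt1 share 715 bases (20.7%) with Slc26a10, at 0.37 FPKM or less. Those of B4galt3 share 791 bases (14.5%) with Ppox, and those of St3gal6 1603 bases (26.0%) with Dcbld2 (5.6 to 24.28 FPKM). B3gnt8 shares 18.1% of its exon bases with Bckdha (33.9 to 132.13 FPKM), and B3gnt9 16.5% with D230025D16Rik (7.22 to 14.82 FPKM). Both members lie far below these partners, so their levels are uncertain if counting ignored strand.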
